A study of Mus musculus with 6 samples.

Results

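Round spermatids of step 3 were taken as the deposited fine class Round ST(Step 3), which held 6993 of the 46495 testicular cells (15%). The cells came from 6 single-cell RNA libraries of adult C57BL6 mouse testis, 3 of the genotype named NONO and 3 of the genotype named NONO deltaER. The whole testis was dissociated with enzymes, and no sort or gate is named in the labels. NONO is an X-linked nuclear RNA- and DNA-binding protein. No label states which part of NONO the deltaER allele alters. Each cell is tied by the deposited cell table to one of the libraries TA to TF and to a group, WT or KI, but no library is tied to a numbered sample. WT was read as NONO (TA, TB and TC) and KI as NONO deltaER (TD, TE and TF), and every genotype direction below would turn if that reading were wrong. Step 3 numbered 1374, 1433 and 1060 cells in TA, TB and TC, and 889, 937 and 1300 in TD, TE and TF. Whether each library is its own animal is not stated, and p-values therefore reflect only how far these libraries spread, which may be technical.

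Round spermatids are the haploid cells that follow the meiotic divisions. In the early steps of their maturation the Golgi apparatus delivers vesicles that fuse into the acrosome, the enzyme-filled cap used at fertilization, while the flagellum grows out from the centrioles. Transcripts for the acrosome, the tail and the later compaction of chromatin accumulate in overlapping waves, and many of them are stored before they are translated. The sex chromosomes are silenced in pachytene spermatocytes, and a set of their genes is transcribed again in spermatids.

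Acrv1, Spaca1 and Izumo1 were the 3 marker genes given for the class. Acrv1 and Spaca1 encode proteins of the acrosomal matrix and membrane, and Izumo1 encodes the sperm protein that binds the egg receptor at fusion. Their promoters are shown because these genes are the markers of the class. Each is 300 bases of RefSeq GRCm38.p6, 5′ to 3′ on the strand of the gene, from 250 bases before the RefSeq start to 50 after it. Capitals mark matches to the letters searched, which were the cyclic AMP response element TGACGTCA (CRE), its shorter core TGACG, the SOX core ACAAT, the RFX core GTTGCC and the TATA letters TATAAA, on either strand. The first is chr9:36692970-36693269 on the plus strand, the second chr4:34050016-34050315 on the minus strand and the last chr7:45621561-45621860 on the plus strand.
Acrv1: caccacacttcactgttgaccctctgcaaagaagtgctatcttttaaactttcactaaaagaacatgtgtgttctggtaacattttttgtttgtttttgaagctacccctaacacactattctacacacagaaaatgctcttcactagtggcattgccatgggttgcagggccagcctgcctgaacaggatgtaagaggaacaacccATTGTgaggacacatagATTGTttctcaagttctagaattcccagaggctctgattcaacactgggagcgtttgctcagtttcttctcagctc
Spaca1: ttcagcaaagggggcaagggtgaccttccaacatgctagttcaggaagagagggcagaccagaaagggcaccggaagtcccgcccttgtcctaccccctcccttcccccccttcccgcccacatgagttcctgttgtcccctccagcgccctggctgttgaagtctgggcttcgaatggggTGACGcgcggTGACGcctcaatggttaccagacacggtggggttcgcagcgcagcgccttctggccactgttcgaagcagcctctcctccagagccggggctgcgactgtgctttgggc
Izumo1: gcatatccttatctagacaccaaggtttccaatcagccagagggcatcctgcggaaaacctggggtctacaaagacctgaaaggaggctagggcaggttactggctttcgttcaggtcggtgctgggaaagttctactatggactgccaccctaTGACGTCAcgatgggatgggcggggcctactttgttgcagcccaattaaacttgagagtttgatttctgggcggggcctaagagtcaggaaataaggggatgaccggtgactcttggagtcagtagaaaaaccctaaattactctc
Acrv1 held the SOX core on the opposite strand at 43 and 26 bases before the start. Spaca1 held the shorter CRE core at 69 and 59 bases before the start. Izumo1 held a complete CRE at 96 bases before the start, which contains the shorter core on each strand. Among all 27025 genes of the promoter table, 2.03% had the complete CRE, 23.0% the shorter core, 34.4% the SOX core, 14.1% the RFX core and 15.7% the TATA letters. A match describes the letters and does not show that a factor binds there.

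The markers were detected in step 3 and separated it from the class before it, but none of the 3 was highest there. Levels are counts per 1000000 UMI (CPM), where a UMI (unique molecular identifier) stands for 1 counted transcript, summed per class and library. Steps 1-2 and steps 4-5 are the fine classes Round ST(Step 1-2) and Round ST(Step 4-5). The broad classes of the same cell table divide them: all 2251 cells of steps 1-2 are in Scytes, with Lep/Zygo/ePac SC and IPac/eDip SC, whereas all cells of step 3 and steps 4-5 are in STids. Because the fine classes were made from these same cells, differences between classes are descriptions and carry no test. Acrv1 was at 3.92 ± 0.978 CPM in steps 1-2, 123.5 ± 4.25 in step 3 and 276.0 ± 18.1 in steps 4-5 (SD, n = 6 libraries). In step 3 its 6 values were 123.4, 130, 122.9, 120.0, 118.5 and 126.5 CPM in TA to TF. Spaca1 was at 13.1 CPM in steps 1-2, 285.6 ± 18.4 in step 3 and 995.0 in steps 4-5. Its step 3 values were 278.9, 292.4, 306.8, 257.0, 301.7 and 277.1 CPM. Izumo1 went from 1.42 CPM to 53.7 ± 4.32 and then 248.7, and its highest class was steps 5-6. All 6 libraries of step 3 lay between those of steps 1-2 and those of steps 4-5 for each marker.

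**Figure D1:**
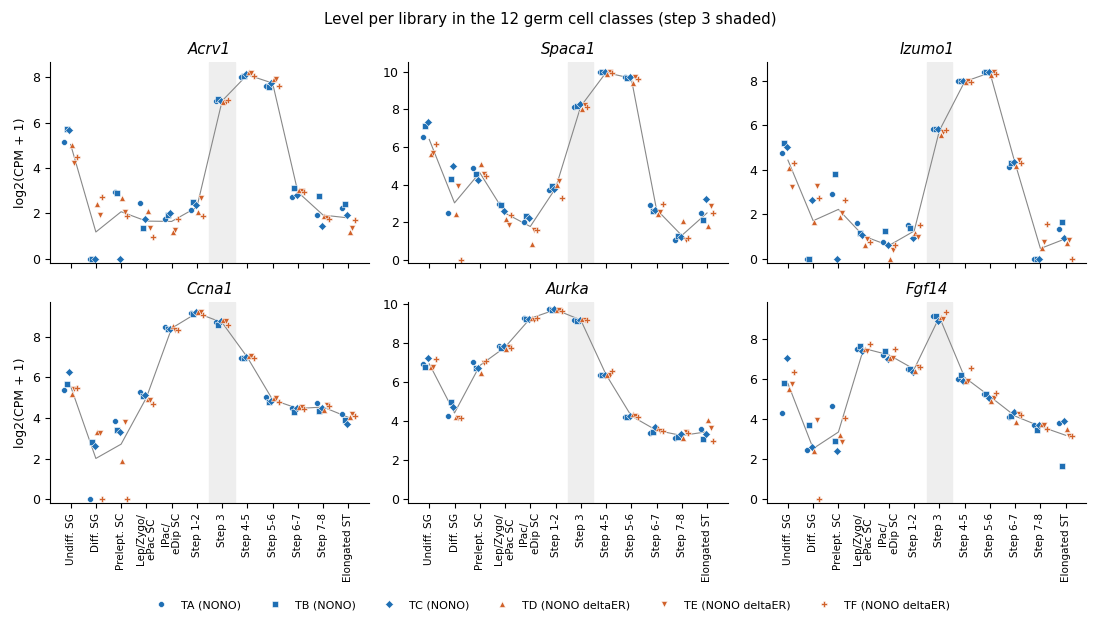
Level as log2(CPM + 1) in each of the 12 germ cell classes, ordered from spermatogonia to elongated spermatids; each point is 1 library, the line joins the means and step 3 is shaded. Acrv1, Spaca1 and Izumo1 climb through step 3, Ccna1 and Aurka decline through it, and Fgf14 is highest in it.

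Per cell, and with every cell thinned to 2000 UMI, a UMI of Acrv1 was seen in 0.846% of cells in steps 1-2, 22.4% (95% Wilson interval 21.4 to 23.4) in step 3 and 42.7% in steps 4-5. Spaca1 was seen in 2.94%, 40.4% and 84.2% of these cells, and Izumo1 in 0%, 8.97% and 38.7%. The Izumo1 value in steps 1-2 was 0 of 2247 cells, with an upper Wilson bound of 0.171%. Sertoli cells, which should lack these genes, gave 4.98% for Acrv1, 10.3% for Spaca1 and 2.94% for Izumo1. Leydig cells gave 6.82%, 15.7% and 5.3%. The step 3 shares lay above those of both somatic classes, and the shares of steps 1-2 lay below them. Thinning left out 29 step 3 cells, 893 Sertoli cells and 448 Leydig cells as too shallow. The median depths before it were 12854 UMI in step 3, 1836 in Sertoli cells and 1868.5 in Leydig cells. The shares of these shallower somatic cells are therefore no measure of background in step 3. Unthinned, the step 3 shares were 68.4%, 85.7% and 42% for Acrv1, Spaca1 and Izumo1. The intervals cover counting error only.

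Markers of somatic cells were low in step 3, and those of other germ cell stages were not all so. The summed level of 6 Sertoli markers in step 3 was 2.25 to 3.43 CPM over the libraries, against 4327 in Sertoli cells. The 4 measured Leydig markers summed to 1.00 to 2.55 CPM, the 4 myoid markers to 0.965 to 4.31 and the 5 macrophage markers to 4.61 to 10.9. Red cell markers were at 0 in 4 libraries. The 6 spermatogonial markers summed to 9.49 to 12.9 CPM. The list of late spermatocytes and meiotic divisions was still at 1756.9 CPM, between 2616.5 in steps 1-2, its highest class, and 418.0 in steps 4-5. The 5 measured markers of pachytene spermatocytes summed to 2876.9 CPM, against 3165.4 in steps 1-2, 2312.1 in steps 4-5 and 4880 in their highest class, Lep/Zygo/ePac SC. The 5 measured markers of elongating and elongated spermatids summed to 1033.2 CPM, against 4593.1 in steps 4-5 and 153939.8 in steps 7-8. The part of these transcripts in the class values was not tested. The class had a median of 12854 UMI and 4124 genes per cell, and 14507576 UMI or more in every library. It shared 8 of its 6985 barcodes between libraries.

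Before any genotype comparison, the 6 libraries fell into 2 sets that crossed the genotypes. The median mitochondrial percent of step 3 cells was 0.349%, 0.357% and 0.341% in TA, TB and TF, and 0.0691%, 0.0903% and 0.0679% in TC, TD and TE. The leading axis of variation between libraries, over 5960 genes, carried 67.5% of the variance and had TA, TB and TF on one side and the others on the other side. The NONO libraries therefore held 2 of the set with more mitochondrial UMI and the NONO deltaER libraries 1. No label gives a batch.

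Step 3 cells ranged widely between their neighbours. Genes at least 4-fold different between steps 1-2 and steps 4-5, with no overlap of libraries, were taken without looking at step 3. The 681 genes of the earlier class took a median of 11.7% of UMI per thinned cell in steps 1-2, 6.05% in step 3 and 1.5% in steps 4-5. The 1077 genes of the later class took 1.25%, 8.2% and 26.2%. Within step 3 the later genes ran from 2.8% of UMI at the 5th percentile of cells to 16.1% at the 95th. Of step 3 cells, 95.2% lay above the 95th percentile of steps 1-2 for the later genes, and 2.8% reached the 5th percentile of steps 4-5. The library medians for the later genes were 8.25%, 8.4% and 8.65% in TA, TB and TC, and 7.65%, 7.85% and 8.2% in TD, TE and TF. The genotypes thus did not overlap in the later genes. Their difference, and its part in the genotype values below, was not tested. Medians for the earlier genes overlapped, at 6.2%, 6.15% and 5.7% in TA, TB and TC and 5.95%, 5.95% and 6.4% in TD, TE and TF. The spread over cells includes the counting error of 2000 UMI per cell.

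**Figure D2:**
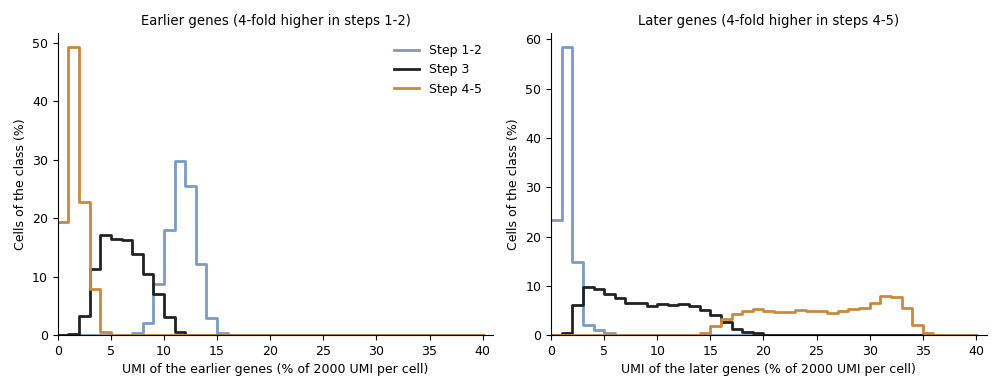
Distribution over cells of the share of UMI from 681 earlier genes (left) and 1077 later genes (right), each cell thinned to 2000 UMI, in bins of 1 percentage point. Step 3 (black) fills the range between steps 1-2 and steps 4-5, with medians of 6.05% for the earlier and 8.2% for the later genes.

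Over 6151 genes with a mean of at least 20 CPM in the 3 classes, 1297 (21.1%) were at least 2-fold higher in step 3 than in steps 1-2 with no overlap of libraries, and 495 (8.05%) were lower. Against steps 4-5, 1356 genes (22.0%) were higher and 930 (15.1%) were lower. A gene could pass the filter through the class where it was high, so all counts within it describe only the genes that passed. A stepwise climb, higher than steps 1-2 and lower than steps 4-5, was seen in 661 genes (10.7%), and a stepwise decline in 342 (5.56%). A level above both neighbours was seen in 54 genes (0.878%) and one below both in 13 (0.211%). Across 13418 genes the log level of step 3 correlated about equally with steps 1-2 (Pearson 0.89) and with steps 4-5 (0.894). These correlations are over genes, which are not independent replicates.

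The 10 genes with the largest ratio over steps 1-2 included genes of the sperm head, tail and surface. Cylc2, which encodes a protein of the calyx under the acrosome, was at 243.7, 295.7, 258.3, 206.0, 241.5 and 251.3 CPM in TA to TF, against a mean of 3.04 in steps 1-2. That is 62.0-fold on the CPM + 1 scale, and steps 4-5 stood higher still at 994.2 CPM. Adgb, the androglobin gene, was 54.9-fold higher than in steps 1-2 (301.0 ± 46.8 against 4.50 CPM). Catsper3, a pore subunit of the sperm calcium channel, was 52.8-fold higher (105.7 ± 12.6 against 1.02 CPM). Pdilt, a testis chaperone that folds sperm surface proteins, was 49.1-fold higher (159.4 ± 10.4 against 2.27 CPM). Lyzl4, a lysozyme-like acrosomal protein, was 48.5-fold higher at 82.8 ± 2.76 CPM, and Adam26a, a membrane protein of the ADAM family, was 52.1-fold higher at 110.8 ± 7.80 CPM. The other members of this set were Spata31, Tex24, 1700029J07Rik and the noncoding 4933436I20Rik. Of the 10, 4933436I20Rik alone was lower in steps 4-5 than in step 3, at 69.4 against 146.7 CPM. None of the libraries of step 3 overlapped those of steps 1-2 for these genes, which the rule for naming them required.

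Genes of the acrosome were mostly higher in step 3 than in steps 1-2, and mostly lower than in steps 4-5. Of 38 listed genes of the acrosome and of sperm-egg fusion, 36 were measured and 32 passed the level filter. Among these, 22 were higher than in steps 1-2, none was lower, and 24 were lower than in steps 4-5. Over all 6151 genes in the filter these shares were 21.1%, 8.05% and 15.1%. The median log2 ratio to steps 1-2 was 4.13, against -0.03 over all 6151 genes. Eqtn, a membrane protein of the acrosome, went from 1.01 to 63.7 and 403.3 CPM over the 3 classes. Spam1, the sperm hyaluronidase, went from 1.37 to 77.5 and 349.0 CPM. Fam209, a spermatid membrane protein, went from 3.79 to 214.1 and 1148.0 CPM. Others were already at their level: Acrbp, which binds proacrosin, was at 748.6, 807.1 ± 111.2 and 766.2 CPM, and Zpbp, a zona-binding protein, at 652.8, 744.0 and 781.3 CPM. The vesicle and Golgi machinery that builds the acrosome did not share the pattern, since 1 of its 21 genes in the filter was higher than in steps 1-2 and 1 was lower. Spata16, a Golgi protein lost in globozoospermia, was at 843.4, 630.9 and 358.0 CPM, and Dpy19l2, of the inner nuclear membrane that anchors the acrosome, at 479.9, 397.0 and 204.4 CPM.

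Genes of the tail were divided by structure. The outer dense fibers and fibrous sheath form the skeleton around the axoneme. Of their 19 genes in the filter, 12 were higher than in steps 1-2 and 12 were lower than in steps 4-5. The shares over all genes in the filter were 21.1% and 15.1%. Akap3, a fibrous sheath anchor, was at 24.4, 351.3 ± 24.4 and 1003.0 CPM over the 3 classes. Smcp, of the mitochondrial capsule of the midpiece, was at 115.4, 568.3 ± 119.8 and 3012.0 CPM. Odf2, the main outer dense fiber protein, was already abundant and varied little (3583, 3859 and 4578 CPM). For the axoneme and intraflagellar transport, by contrast, 6 of 58 genes were higher than in steps 1-2 and 21 were higher than in steps 4-5, against 21.1% and 22.0% of all genes in the filter. Of the 55 listed genes at 50 CPM or more, 11 had their highest level of all 17 classes in step 3, against 10.5% of all such genes. Dnah8, an outer arm dynein heavy chain, was at 2595, 1527 ± 94.3 and 403.1 CPM. Rsph1, of the radial spoke head, was at 4163, 3080 ± 255.4 and 1104 CPM. Cfap61, a radial spoke protein, was at 134.3, 221.3 ± 16.8 and 91.5 CPM, and Spef2, of the central apparatus, at 157.9, 321.9 ± 23.6 and 199.9 CPM. Dnah3, a dynein heavy chain, went the other way at 12.1, 223.7 ± 26.8 and 457.4 CPM.

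The channel and kinase genes of the sperm also came in separately. Of the CatSper list 7 of 19 genes were higher than in steps 1-2 and 2 were lower, against 21.1% and 8.05% of all genes in the filter. Of the genes for the pore subunits, Catsper1, Catsper3 and Catsper4 were at 117.7, 105.7 and 105.1 CPM in step 3 and at 2.37, 1.02 and 3.09 CPM in steps 1-2. Catsper2, which also encodes a pore subunit, was already at 399.5 ± 49.3 CPM in steps 1-2, and was at 323.3 ± 49.3 in step 3 and 201.7 in steps 4-5. The auxiliary subunit genes Catsperb, Catsperd and Catsperg1 were at 195.7, 264.6 and 451.4 CPM in steps 1-2 and at 145.2, 196.5 and 354.7 CPM in step 3. For the testis-specific serine kinases and related kinases, 6 of 9 genes were higher than in steps 1-2 and 6 were lower than in steps 4-5. The shares over all genes in the filter were 21.1% and 15.1%. Tssk2 was at 6.53, 93.6 ± 8.50 and 591.5 CPM, and Tsks, its substrate, at 12.7, 106.9 ± 15.1 and 408.4 CPM.

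Of 23 genes of the meiotic divisions in the filter, 7 were lower in step 3 than in steps 1-2 and 13 were higher than in steps 4-5, and none went the other way on either side. The other 16 did not pass against steps 1-2. Over all 6151 genes in the filter, 8.05% were lower than in steps 1-2 and 22.0% were higher than in steps 4-5. The median log2 ratio was -0.53 to steps 1-2 and 1.22 to steps 4-5, against -0.03 and 0.36 over all 6151 genes. Aurka, the mitotic and meiotic spindle kinase, was at 841.9 CPM in steps 1-2, 583.2 ± 12.2 in step 3 and 83.2 in steps 4-5. Ccna1, the meiotic A-type cyclin, was at 572.3, 412.7 ± 33.1 and 125.2 CPM. Nek2, a centrosomal kinase, was at 388.8, 380.4, 342.0, 368.2, 335.6 and 393.0 CPM in the 6 step 3 libraries and at 23.5 ± 2.55 in steps 4-5, the largest ratio over steps 4-5 (15.1-fold). Cdca8, of the chromosomal passenger complex, was 9.83-fold and Hjurp, the centromere histone chaperone, 9.76-fold higher than in steps 4-5. Slc2a3, a glucose transporter, was at 1702 CPM in steps 1-2, 536.1 ± 30.03 in step 3 and 49.1 in steps 4-5. Tcam1, a testis cell adhesion gene, was at 314.4, 68.2 and 5.91 CPM. Nolc1, a nucleolar protein, Lsg1, a ribosome export factor, and Edc4, of mRNA decapping, were 11.6-fold, 11.9-fold and 10.5-fold higher than in steps 4-5. Zbtb42 and the noncoding Gm20125 completed the set of 10.

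Some transcripts of steps 1-2 were near 0 by step 3. Gem, a small GTPase, was at 59.9 ± 1.801 CPM in steps 1-2 and at 2.62 to 3.66 CPM over the step 3 libraries, 15.1-fold lower. Tomm34, a cochaperone of mitochondrial import, was 10.6-fold lower (6.21 against 75.8 CPM), and L3mbtl2, a polycomb-type chromatin protein, 9.99-fold lower (4.19 against 50.8 CPM). Mgll, a monoglyceride lipase, Kri1, a ribosome biogenesis factor, Rnf144b, a ubiquitin ligase, Ube2t, a ubiquitin-conjugating enzyme of DNA repair, and Ddx51, an RNA helicase, were 9.98-fold, 9.82-fold, 9.64-fold, 9.34-fold and 8.96-fold lower. Kif15, a spindle kinesin, was at 86.0 CPM in steps 1-2, 8.91 in step 3 and again 42.6 in steps 4-5, so that step 3 was its low point among the 3 classes. Cep192, a centrosome scaffold, was 8.37-fold lower.

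Genes of RNA handling were next. Over all 6151 genes in the filter, 8.05% were lower than in steps 1-2 and 22.0% were higher than in steps 4-5. In the RNA splicing list 5 of 34 genes were lower than in steps 1-2, 15 were higher than in steps 4-5 and none was on the other side of either neighbour. Prpf8, the core of the spliceosome, was at 139.0, 65.0 ± 4.85 and 8.44 CPM, and Sf3b1, of the U2 particle, at 460.8, 288.6 ± 8.99 and 75.4 CPM. In the chromatoid body and piRNA list, 8 of 23 genes were lower than in steps 1-2 and 8 higher than in steps 4-5. Piwil1, the pachytene piRNA-binding protein, was at 238.2, 54.9 ± 5.14 and 10.2 CPM. Other members persisted: Mael was at 1367, 1420 ± 55.2 and 1291 CPM and Ddx4, the germ cell helicase of the chromatoid body, at 1392, 1306 ± 46.7 and 925.5 CPM. Pabpc6, a poly(A)-binding protein, was at 1920, 1046 ± 45.4 and 108.9 CPM.

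Among the transcription regulators of spermatids, members were high at different times. Of 27 listed regulators in the filter, 9 were higher than in steps 1-2 and 1 was lower, against 21.1% and 8.05% of all genes. Crem, the cyclic AMP response regulator that drives postmeiotic genes, was at 402.5, 657.1 ± 39.3 and 926.4 CPM over the 3 classes. Sox5 was at 8.28, 282.4 ± 22.6 and 1285 CPM, and Sox30, a SOX factor needed for round spermatids, at 79.6, 90.4 ± 12.6 and 235.4 CPM. Rfx1, an RFX factor, was at 13.6, 154.5 ± 5.85 and 272.6 CPM, while Rfx2, which is required for spermatid ciliary genes, was at 447.0, 403.1 and 243.7 CPM. Spz1 was at 42.5, 390.1 ± 37.8 and 2013 CPM. Tbpl1, the germ cell TATA-binding-like factor, and Gtf2a1l, its TFIIA partner, had their highest level of all classes in step 3, at 886.4 ± 36.5 and 1054 ± 114.1 CPM. Mybl1, the regulator of pachytene genes, was lower at each class (160.5, 44.1 and 12.3 CPM).

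Other lists were less one-sided. Over all 6151 genes in the filter, 21.1% were higher and 8.05% lower than in steps 1-2. Against steps 4-5, 22.0% were higher and 15.1% lower, and several of the counts below lie near these shares. Of 22 genes of the manchette and nuclear shaping, 6 were higher than in steps 1-2 and 9 lower than in steps 4-5, with Hook1, a manchette linker, at 467.5, 334.8 ± 14.1 and 700.3 CPM. Of 21 genes of sperm glycolysis, 4 were higher and 1 lower than in steps 1-2, with Pgk2, the testis phosphoglycerate kinase, at 350.2, 457.5 ± 49.8 and 747.9 CPM. Of 27 ubiquitin and protein turnover genes, 9 were higher and 2 lower than in steps 1-2, and of 30 proteasome genes 3 and 1. Of 20 chaperone and endoplasmic reticulum genes, 3 were higher than in steps 1-2 and 5 higher than in steps 4-5, with Hspa5, the main chaperone of that compartment, at 1046, 818.5 ± 73.7 and 145.3 CPM. Of 17 DBHS and paraspeckle genes, 1 was higher and 2 were lower than in steps 1-2. Pspc1, a DBHS relative of Nono, was at 200.9, 67.4 ± 3.62 and 17.5 CPM, and Nono itself at 0.323, 3.72 ± 0.453 and 3.98 CPM. Of 51 cytosolic ribosome genes none was higher and 1 was lower than in steps 1-2.

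The same 5 sets of letters were counted in the promoters of genes grouped by step 3 level. Of the 3707 genes at 50 CPM or more in step 3, 2999 (80.9%) had a promoter in the table, and 26.4% of these held the SOX core, 4.23% the complete CRE, 38.2% its shorter core, 20.2% the RFX core and 8.54% the TATA letters. Of the 930 genes lower in step 3 than in steps 4-5, 745 (80.1%) had one, and 45.2% of these held the SOX core, 4.43% the complete CRE, 31.1% its shorter core, 19.6% the RFX core and 12.9% the TATA letters. The mean G and C content of the promoters was 60.0% in the group at 50 CPM or more and 55.6% in the group lower than steps 4-5, and its part in these shares was not tested. For the genes higher and the genes lower than in steps 1-2, fewer than 80% had a promoter (79.4% and 78.0%), and their counts are not given here. These shares lie close to the 80.1% of the group lower than steps 4-5, so the limit of 80% is a choice of reporting.

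A last set of genes was near 0 in step 3 and high after it. Cdyl, a chromatin reader with a spermatid transcript tied to histone hyperacetylation, was at 4.38 to 5.74 CPM over the step 3 libraries and at 383.9 ± 18.7 in steps 4-5. H1fnt, the spermatid linker histone H1T2, was at 5.95 to 11.4 CPM in step 3 and 512.8 ± 21.7 in steps 4-5. Cst8, a cystatin of the germ line, was 72.5-fold, Tmem144 71.3-fold, Saxo1, a microtubule stabilizer of the axoneme, 67.4-fold and Iqcf1 63.3-fold lower in step 3 than in steps 4-5. The antisense 1700020G17Rik had the largest ratio, at 4.06 against 399.2 CPM. The others of the 10 were 4931428F04Rik, Tex29 and Vmn2r7, a vomeronasal receptor gene. Tnp2 and Prm2, the transition protein and protamine that package sperm DNA, were at 28.8 ± 8.37 and 255.1 ± 72.2 CPM in step 3, close to their 23.6 and 246.4 CPM in steps 1-2. In thinned cells a Prm2 UMI was seen in 13.2% of cells in steps 1-2, 15.9% in step 3, 27.5% in steps 4-5 and 60.9% of Sertoli cells. Sertoli cells were far shallower before thinning (median 1836 UMI against 12854 in step 3), so their share is no measure of background in step 3. The part of background in the step 3 share was not tested. Chd5, a remodeler used in histone removal, was at 3.53, 94.4 ± 31.8 and 440.7 CPM. Its step 3 values followed the library sets, at 118.8, 122.4 and 128.5 CPM in TA, TB and TF and 68.7, 62.5 and 65.5 in TC, TD and TE, and the part of the sets in them was not tested. Tnp1 and Hils1 were not analysed here.

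A level highest in step 3 of all 17 classes was found for 389 of the 3707 genes at 50 CPM or more (10.5%). The margin was mostly thin, since the median ratio to the next class was 1.09 and 21 genes exceeded the next class by 2-fold or more. In single libraries the count was 350 to 408. The 15 with the largest ratio were Gm48707, Gm10354, Gm13986, Gm17019, Gm30228, Fgf14, 1700029J03Rik, Gm12695, Ppfia2, Tmc1, Gm7247, Chgb, Ssxb1, Ssxb2 and Arl14ep. Fgf14, an intracellular fibroblast growth factor homolog that binds sodium channels in neurons, was the most abundant of them. It was at 565.0, 575.7, 482.1, 546.3, 510.1 and 671.3 CPM in TA to TF, against 90.2 ± 5.69 in steps 1-2 and 68.4 ± 13.6 in steps 4-5. Its next class was Lep/Zygo/ePac SC, the earlier spermatocytes, which it exceeded 2.98-fold. Fgf14 was higher in each of TA, TB and TF than in any of TC, TD and TE, in step 3 and in steps 4-5. The part of the library sets in its level was not tested. Chgb, a granin of secretory vesicles, was at 118.4 ± 9.52 CPM against 36.6 and 22.2 in the neighbours. Tmc1, known as the channel of inner ear hair cells, was at 98.7 ± 4.40 CPM against 18.1 and 39.5. Ppfia2, a liprin scaffold of synapses, was at 145.6 ± 18.3 CPM against 57.9 and 44.95. With every cell thinned to 2000 UMI, Fgf14 was seen in 56.8% of step 3 cells, 16.9% in steps 1-2, 11.6% in steps 4-5 and 7.15% of Sertoli cells. Gm48707, a noncoding gene, had the largest ratio (6.66-fold over steps 4-5) at 45.2 to 75.2 CPM. Ssxb1 and Ssxb2 belong to a family of near-identical genes that can share reads, so their separate levels are uncertain. Of the 389 genes, 313 (80.5%) had a promoter in the table, of which 5.43% held the complete CRE, 35.1% its shorter core, 23.3% the SOX core, 23.6% the RFX core and 8.95% the TATA letters.

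The genes with the most UMI in step 3 were not particular to it. Zc3h7a, which encodes a zinc finger protein, led with 5454 to 9178 CPM over the libraries, followed by Peak1, a pseudokinase, at 6075 ± 689.9 CPM. Lyar, a nucleolar zinc finger protein, Ropn1l, a ropporin-family tail protein, Gstm5, a glutathione transferase, Ybx1, an RNA-binding Y-box protein, Nasp, a histone chaperone, Odf2, Ubb, a ubiquitin gene, and Hsp90aa1, a chaperone, were at 4837, 4610, 4536, 4084, 4025, 3859, 3655 and 3490 CPM. Of the 10, Ubb had its highest class in step 3, by a ratio of 1.02. The levels count 3′ tags and are not per length.

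Sex-linked transcript shares were at an intermediate level in step 3. X-linked genes gave 0.532%, 0.562%, 0.534%, 0.514%, 0.522% and 0.546% of UMI in TA to TF, a mean of 0.535% ± 0.0172 (SD, n = 6). The share was 0.0344% in IPac/eDip SC, the later spermatocytes, 0.129% in steps 1-2, 1.05% in steps 4-5 and 1.95% in steps 7-8. No library of step 3 overlapped a library of either neighbour. Y-linked genes gave 0.0560% ± 0.0011 of UMI in step 3, 0.00526% in steps 1-2 and 0.102% in steps 4-5. Their share was lower again in steps 5-6, at 0.0750%, where the X-linked share was still higher, at 1.49%.

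**Figure D3:**
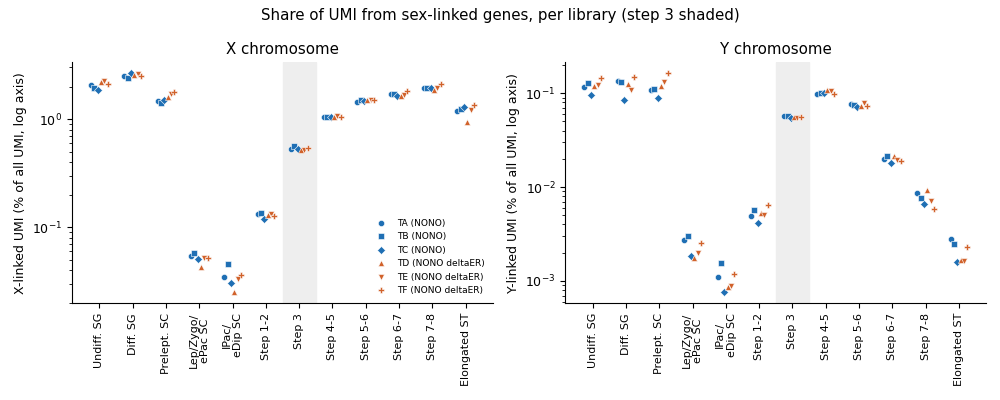
Share of UMI from X-linked (left) and Y-linked (right) genes in the 12 germ cell classes, on a log axis; each point is 1 library and step 3 is shaded. The X-linked share climbs from 0.0344% in the later spermatocytes through 0.535% in step 3, and the Y-linked share peaks one class after step 3 among the spermatid classes.

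Gene by gene, 956 X-linked and 314 Y-linked genes were placed on mm10, and 77 and 5 of them passed the level filter over the 3 classes. Of the 77, 68 were higher in step 3 than in steps 1-2 and 1 was lower, with a median log2 ratio of 3.17 against -0.03 over all genes. Against steps 4-5, 37 were lower and 4 were higher. Over all genes in the filter, 21.1% were higher and 8.05% lower than in steps 1-2. Against steps 4-5, 15.1% of all genes were lower and 22.0% higher. The filter uses the mean over the 3 classes, and the X-linked share was lowest in steps 1-2 among them. Genes could thus pass through the later classes alone, so a higher level than in steps 1-2 is partly built into these counts. Akap4, the main fibrous sheath protein, was at 40.1, 229.2 ± 20.4 and 1377 CPM over the 3 classes. Cul4b, a ubiquitin ligase scaffold, was at 15.4, 148.8 ± 7.26 and 296.3 CPM while its autosomal relative Cul4a was at 111.2, 63.5 and 28.1 CPM. Rpgr, a ciliary protein, was at 0.893, 54.1 ± 7.94 and 130.3 CPM, and Upf3b, of nonsense-mediated decay, at 3.72, 71.0 ± 5.56 and 90.4 CPM. Ssxb1 was at 74.5, 78.8, 76.2, 72.8, 72.5 and 69.9 CPM in the 6 libraries, against 2.23 in steps 1-2 and 30.5 in steps 4-5. Ssxb2 and Ssxb6 had the same order, at 57.5 and 50.9 CPM in step 3. Dmd, the dystrophin gene, was at 21.4, 86.1 ± 21.7 and 20.2 CPM. Of the Y-linked genes, Eif2s3y, a translation initiation subunit, was at 6.88, 61.4 ± 2.30 and 139.8 CPM.

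Mitochondrially encoded transcripts were present in step 3 and mostly gone in steps 4-5. The median mitochondrial percent over cells was 0.299% in steps 1-2, 0.26% in step 3 and 0.00797% in steps 4-5. Of the 12 mitochondrial genes in the filter, none was 2-fold apart from steps 1-2 without overlap. Against steps 4-5, 8 of the 12 were higher, as were 22.0% of all genes in the filter. The mitochondrial values followed the library sets. mt-Atp6, a subunit of ATP synthase, and mt-Co1, of cytochrome oxidase, were at 605.7 ± 369.0 and 420.8 ± 292.5 CPM. mt-Co1 was 2.16 higher on the log2(CPM + 1) scale in TA, TB and TF than in TC, TD and TE, and mt-Cytb, of cytochrome b, 0.58 higher. Between genotypes all 12 genes had a log2 fold change below 0 in NONO deltaER, with a median of -0.51 and none called, and leaving out 1 library moved the median from -0.20 (without TE) to -1.35 (without TF). With the library set as a covariate, 9 were above 0 and 3 below, with a median of 0.03. The nuclear genes of oxidative phosphorylation had no stable direction. Their median was 0.03 with 46 of 72 above 0, but -0.03 with 29 above 0 when the library set was a covariate. Without TD, 20 were above 0 and 53 below (median -0.07), without TC 32 were above and 41 below (-0.02), and without TF the median was 0.12.

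**Figure D4:**
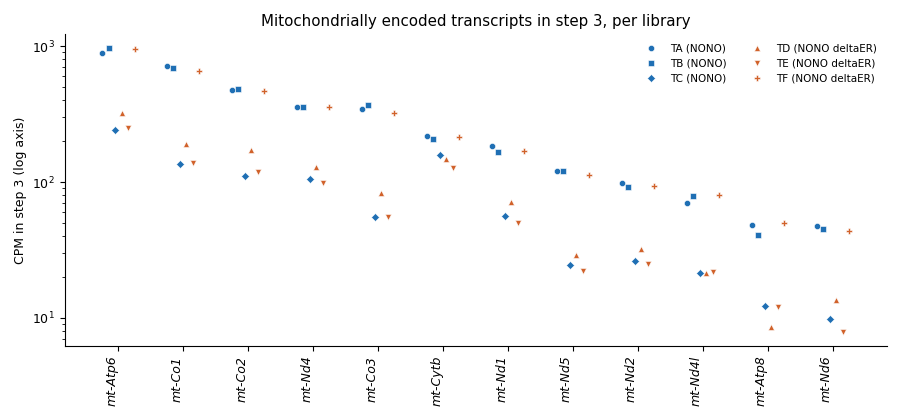
Level in CPM, on a log axis, of the 12 mitochondrially encoded genes tested in step 3, 1 point per library, with genotype as colour. TA, TB and TF lie together above TC, TD and TE for every gene, with the narrowest gap for mt-Cytb.

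The genotype comparison asked which step 3 transcripts differ between NONO deltaER and NONO. Nono itself was at 4.002, 4.16 and 4.21 CPM in the NONO libraries and at 3.16, 3.38 and 3.43 in the NONO deltaER libraries. The groups did not overlap, but the log2 fold change of -0.31 ± 0.15 (SE) was not called by edgeR's quasi-likelihood test (adjusted p = 0.9999). Whether the counted 3′ end lies inside the altered part is not given, so this level does not check the labels. Acrv1, Spaca1 and Izumo1 had log2 fold changes of -0.04 ± 0.07, -0.07 ± 0.08 and -0.17 ± 0.08, each with an adjusted p of 0.9999. The Izumo1 values were 56.8, 56.7 and 56.9 CPM in NONO and 46.2, 51.1 and 54.1 in NONO deltaER, with no overlap.

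No gene passed an adjusted p of 0.05 in this fit, 0 of 15151 (0.0%). At an unadjusted p under 0.05 there were 446 genes (2.94%), of which 218 (1.44% of those tested) were higher and 228 (1.5%) lower in NONO deltaER. DESeq2 called 1 gene and gave 208 at an unadjusted p under 0.05. That gene was Gm26552, a predicted gene on chromosome 14, at 1.35, 1.23 and 0.827 CPM in NONO and 3.41, 4.44 and 2.78 in NONO deltaER. Its DESeq2 adjusted p was 0.0205, against 0.9999 with edgeR and 0.0769 with edgeR when no filter on low counts was applied. The genotypes did not overlap in 1164 genes (7.68%), or in 464 of the 7814 genes with a mean of at least 10 CPM (5.94%).

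From these 464, the genes named are taken from the 10 with the smallest unadjusted p in each direction and given as values, since none was called. Those higher in NONO deltaER were Gm40918, Cfap97d2, Gm12763, Nmnat3, Esrp1, Hist1h1t, 4930423M02Rik, Cdh13, A330076C08Rik and Gm13986, with log2 fold changes of 0.23 to 0.45. Nmnat3, an enzyme of NAD synthesis, was at 61.4, 59.4 and 59.6 CPM in NONO and at 73.4, 65.8 and 77.5 in NONO deltaER. Hist1h1t, the testis linker histone, was at 19.3, 22.1 and 16.8 CPM against 25.4, 25.9 and 23.6. Gm13986 is also among the genes highest in step 3, at 43.0, 51.3 and 43.3 CPM against 55.4, 52.8 and 58.4. Those lower in NONO deltaER included Actg2, B230209E15Rik, Gm21847, Tcerg1l, Wdr49, Gm6117, Samd4, Sec11c and Dusp10, with log2 fold changes of -0.60 to -0.24. Samd4, an RNA-binding repressor of translation, was at 95.8, 97.4 and 99.7 CPM in NONO and at 75.5, 86.2 and 85.9 in NONO deltaER. Actg2, a smooth muscle actin, was at 13.6, 13.9 and 14.3 CPM against 9.34, 10.4 and 11.1. All of these genes had an adjusted p of 0.9999.

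**Figure D5:**
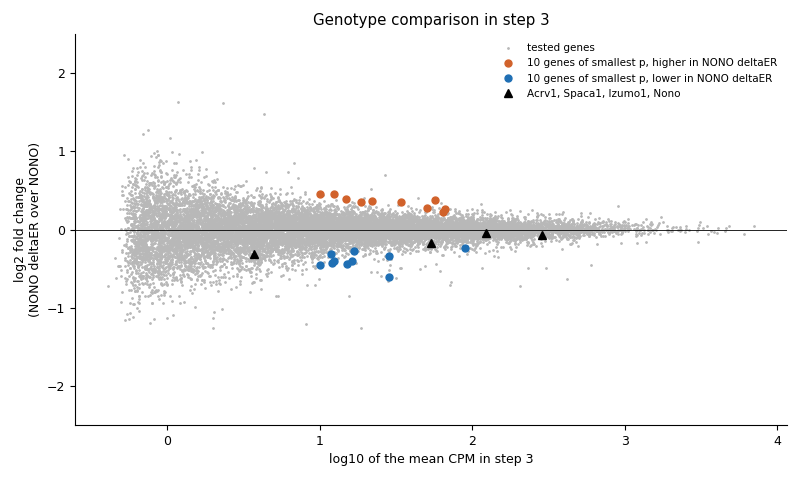
Log2 fold change of NONO deltaER over NONO against the log10 of the mean CPM, for the genes tested in step 3. Marked are the 3 markers, Nono and 20 genes, 10 in each direction. The 20 had the smallest p among genes at 10 CPM or more whose genotypes did not overlap, not among all genes drawn. These 20 genes lie between -0.60 and 0.45 and none was called; 2 genes beyond 2.5 are not drawn.

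No fixed list held a called gene. The acrosome list had 8 of 36 tested genes above 0 and 28 below, with a median log2 fold change of -0.06. That median was -0.03 without TD (12 above 0) and -0.03 without TC (13 above 0). It was -0.08 without TA (9 above 0) and -0.08 with the library set as a covariate (6 above 0). The fibrous sheath list had 4 of 19 above 0, with a median of -0.07. Without TC 9 were above 0 and the median was -0.02, without TF it was -0.04, and with the library set as a covariate it was -0.11. The axoneme list had 18 of 59 above 0, with a median of -0.02, a lean that was absent without TD (30 above and 29 below) and with the library set as a covariate (29 above and 30 below). Its median ranged from -0.05 without TF to 0.000219 without TD. Over all 15151 genes 7556 (49.9%) were above 0 and 7595 (50.1%) below, and the median was -0.000406. In the list of DBHS proteins and paraspeckles, the group of Nono itself, 11 of 22 genes were above 0, with a median of -0.00413 that ranged from -0.04 without TF to 0.02 without TD. The X-linked genes had 183 of 418 above 0 and a median of -0.02, which was -0.04 without TA, -0.01 without TC, -0.00706 without TB and -0.01 with the library set as a covariate. Of these 418, 17 (4.07%) had an unadjusted p under 0.05, against 2.94% of all genes tested, and none was called.

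The 6 whole-class values compared did not differ between the genotypes beyond the spread of the libraries. The library medians of the later genes, which did not overlap, were not among them. Step 3 made up 15.42%, 16.85% and 14.01% of the cells in TA, TB and TC and 12.67%, 14.97% and 15.77% in TD, TE and TF. The means were 15.4% ± 1.42 and 14.5% ± 1.61 (SD, n = 3 each, exact two-sided permutation p = 0.5). A typical step 3 cell held 12494.2 ± 1473.1 UMI in the NONO libraries, taking the mean of the 3 library medians, and 14364.2 ± 2767.8 UMI in the NONO deltaER libraries (exact permutation p = 0.4). The X-linked share of UMI was 0.543% ± 0.0169 against 0.527% ± 0.0167 (exact permutation p = 0.4), and the Y-linked share 0.0564% ± 0.00146 against 0.0557% ± 0.000733 (exact permutation p = 0.5). Over the 6 values of this kind every adjusted p was 0.5, and 3 libraries against 3 cannot give a p below 0.1.

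The genotype difference in step 3 was also compared with that in its neighbours, through the ratio of the classes within each library. Against steps 1-2, limma called 0 of 11613 genes (0.0%), with 601 at an unadjusted p under 0.05 (5.18%) and a lowest adjusted p of 0.345, for Agbl1. Against steps 4-5 it called 0 of 14172 genes (0.0%), with 717 at an unadjusted p under 0.05 (5.06%) and a lowest adjusted p of 0.2, for Phldb1. A genotype difference of step 3 apart from that of its neighbours was thus not detected at this depth and number of libraries.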

How the data were processed

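Single-cell RNA libraries of adult testis (10x 3′ chemistry) were counted with Cell Ranger 2.1.1 on mm10, per the submitters' processing notes. No source used here states the annotation version. The deposited matrix holds UMI counts of 25771 genes in 46495 cells, and the deposited cell table gives the library, group, class and mitochondrial percent of each cell, as the authors made them. Every cell had at least 500 UMI, 201 genes and at most 4.995% mitochondrial UMI. UMI counts were summed per class and library, divided by the library's class total and multiplied by 1000000 (CPM). Ratios between classes used CPM + 1. Genotypes were compared with edgeR 4.0.16 (quasi-likelihood test, TMM, low counts filtered, Benjamini-Hochberg adjustment over all genes tested), under R 4.3.3. The SE given with an edgeR log2 fold change is approximate. It was taken as the absolute log2 fold change divided by the square root of the test's F statistic. The ratio of step 3 to a neighbour within each library was compared with limma 3.58.1, and DESeq2 1.42.0 was an alternative. Single values per library were compared with an exact permutation test in Python 3.11.15. The fits were tested on simulated data in which each gene varied on its own and no library sets were present. That test therefore does not cover the effect of the sets on the fits. Symbols were placed with GENCODE M21, which matched 25127 of 25771 (97.5%). Promoters came from RefSeq.

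Named genes were, in each direction, the 10 with the largest ratio to each neighbour, the 15 with the largest ratio among those highest in step 3, the 10 most abundant, and the 10 with the smallest unadjusted genotype p among genes at 10 CPM or more whose libraries did not overlap. The lists and their members were chosen with earlier results of these data known. The alternatives were other scalings and filters, each library left out in turn, equal cell numbers, a library set term and removal of high doublet scores. Scrublet (scanpy 1.11.5) marked 185 cells (0.398%), too few to be trusted, so the 5% of cells with the highest scores in each library were left out instead as an alternative. Listed genes without a row in the matrix were not analysed here, and 1 gene that the rule selects is not reported here. The genotype of each library came from the deposited group of its cells, since libraries could not be tied to numbered samples, and no p-value across classes was made.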

Additional observations from a re-analysis of the deposited data

How the results depend on the processing

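DESeq2 called 1 gene, Gm26552 (adjusted p = 0.0205), where edgeR's quasi-likelihood test called 0. The count stayed at 0 with each library left out, with no filter on low counts, with equal numbers of cells, with the library set as a covariate and without the 5% highest doublet scores. The number of genes at an unadjusted p under 0.05 was 446 with all libraries and 243 without TB, 280 without TA, 988 without TC and 1438 without TF, and it was 948 with the library set as a covariate. The difference in median genes per cell reversed from 243.0 to -3.67 when each cell was thinned to 2000 UMI. The comparisons with steps 1-2 and steps 4-5 also called 0 genes under every alternative run. Their lowest adjusted p was 0.0568, for Phldb1 against steps 4-5 without the highest doublet scores. With each library left out, the difference in cell share ranged from -1.67 to -0.0599 percentage points, that in median UMI from 651.0 to 3374.3, and the number of genes highest in step 3 from 381 to 395. That number was 543 with a level floor of 20 CPM in place of 50. All 288 values of named genes under alternatives kept their direction and none was called. The 20 genes of smallest p were chosen because their genotypes did not overlap. Leaving out 1 library could therefore hardly turn their direction, and the kept direction is no support for a difference. No paired analysis was possible because the libraries carry no replicate number of the labels. With 3 libraries a genotype, small differences are not detectable, and the cause of the split between library sets was not tested.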

Other observations

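The largest fold changes between the genotypes in step 3 came from 1 library. These 2 genes were chosen after their values were seen. Gm10413, on chromosome 14, was at 2.22, 2.11 and 1.93 CPM in TA, TB and TC, and at 2.08, 171.7 and 1.00 CPM in TD, TE and TF. Its log2 fold change was 4.81 ± 2.40 (SE), and edgeR's quasi-likelihood test did not call it (adjusted p = 0.9999). TE also stood apart for Gm10413 in steps 4-5, at 130.5 CPM against at most 1.57 in the other libraries, and in steps 1-2, at 8.26 CPM against at most 0.134.

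Gm43640, on chromosome 5, was at 80.4 CPM in TE, 8.52 in TD and 4.04 in TB, and at 0.241, 0.482 and 0.355 CPM in TA, TC and TF. TE was also the highest library for Gm43640 in steps 1-2 (75.2 CPM), in steps 4-5 (59.3 CPM) and in the later spermatocytes (70.0 CPM). Its log2 fold change in step 3 was 4.26 ± 2.12 (SE), with an adjusted p of 0.9999 by edgeR. The cause of these differences between libraries was not tested.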
